A study of Rattus norvegicus with 96 samples.

Results

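The genes described here make, take up and receive noradrenaline in the central nucleus of the amygdala of rats bred for high or low alcohol consumption. They are Dbh, Slc6a2, Adra1a, Adra1b, Adra2a, Adra2c and Adrb1. All probe sets that the array annotation gives to exactly 1 of these symbols were taken, which are 8 probe sets for 7 genes, of 31042 probe sets and 14217 genes in all. Adra2a has 2 probe sets and each other gene has 1. The series holds 96 arrays of 10 rat lines in 5 pairs, each pair set apart by selective breeding on alcohol intake. The preferring lines were HAD1 (n = 9), HAD2 (n = 10), P (n = 10), AA (n = 10) and sP (n = 8). Their non-preferring partners were LAD1 (n = 10), LAD2 (n = 10), NP (n = 10), ANA (n = 10) and sNP (n = 9). The labels name no transgene or treatment for any line, and each array was made from 25 ng of total RNA of 1 animal. Age, sex, alcohol history and the dates of hybridisation are not in the labels used here.

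Noradrenaline is made from tyrosine by tyrosine hydroxylase (Th), aromatic amino acid decarboxylase (Ddc) and, inside vesicles, dopamine beta-hydroxylase (Dbh). It is released in the forebrain by axons of brainstem neurons and taken back up by the noradrenaline transporter (Slc6a2), so the transcripts of Dbh and Slc6a2 are made mainly in cell bodies outside the amygdala. The receptors fall into the alpha-1 class (Adra1a, Adra1b), which acts through Gq and calcium, the alpha-2 class (Adra2a, Adra2c), which inhibits adenylyl cyclase, and the beta class (Adrb1), which stimulates it. In the amygdala noradrenaline is best known for its part in stress, arousal and the memory of aversive events. Adra2c is also known to be abundant in the medium spiny neurons of the striatum, which borders the amygdala.

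The values are log2 RMA values, on which 1 unit is a factor of 2 in probe signal. The excess of the 3' over the 5' control probe sets of GAPDH (log2) is a sign of RNA quality. It averaged from 3.33 to 4.09 in the HAD and LAD lines and from 0.20 to 0.43 in the other lines, so each difference was taken within a pair. The F test used below compares these differences among pairs of both kinds, where line pair and this ratio cannot be fully told apart. On 15 arrays (2 of HAD1 and LAD1, 0 of HAD2 and LAD2, 4 of P and NP, 5 of AA and ANA, 4 of sP and sNP) the expression of the probe sets that best separate the lines of a pair lay on the side of the other line. These are called doubted arrays and results that rest on them are given with and without them. They were chosen for lying toward the other line, so leaving them out widens differences between lines by construction. One array titled LAD1 is called HAD1 in another label and was kept as LAD1, and the arrays sP 2 and sNP 2 were nearly the same. The 12 measured markers of central amygdala neurons averaged from 9.04 to 11.71 log2 units over the arrays, where the array medians lay between 7.77 and 8.03, and none of these 12 differed past the test in any pair.

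With all arrays, none of the 8 probe sets passed the test in any pair, where the test is limma at an adjusted p under 0.05 (Benjamini-Hochberg, taken over the 31042 probe sets). The background share of probe sets called was 0.963% for HAD1 minus LAD1 and 4.09% for HAD2 minus LAD2. It was 0% for P minus NP, 0% for AA minus ANA and 0% for sP minus sNP. At an unadjusted p under 0.05, limma gave 0 of 8 probe sets in HAD1 and LAD1 against 11% of all probe sets, 1 of 8 in HAD2 and LAD2 against 16.4%, and 0 of 8 in P and NP against 4.91%. It gave 1 of 8 in AA and ANA against 4.92%, and 3 of 8 in sP and sNP against 4.32%. Of the 40 differences, 38 were under 0.2 log2 units in size, and both others belonged to Adra2c. The ranges of both lines overlapped in all 40 comparisons. The p-values rest on the spread among animals of 1 line, which are related by descent. Breeding was repeated over line pairs, of which there are 5.

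**Figure D1:**
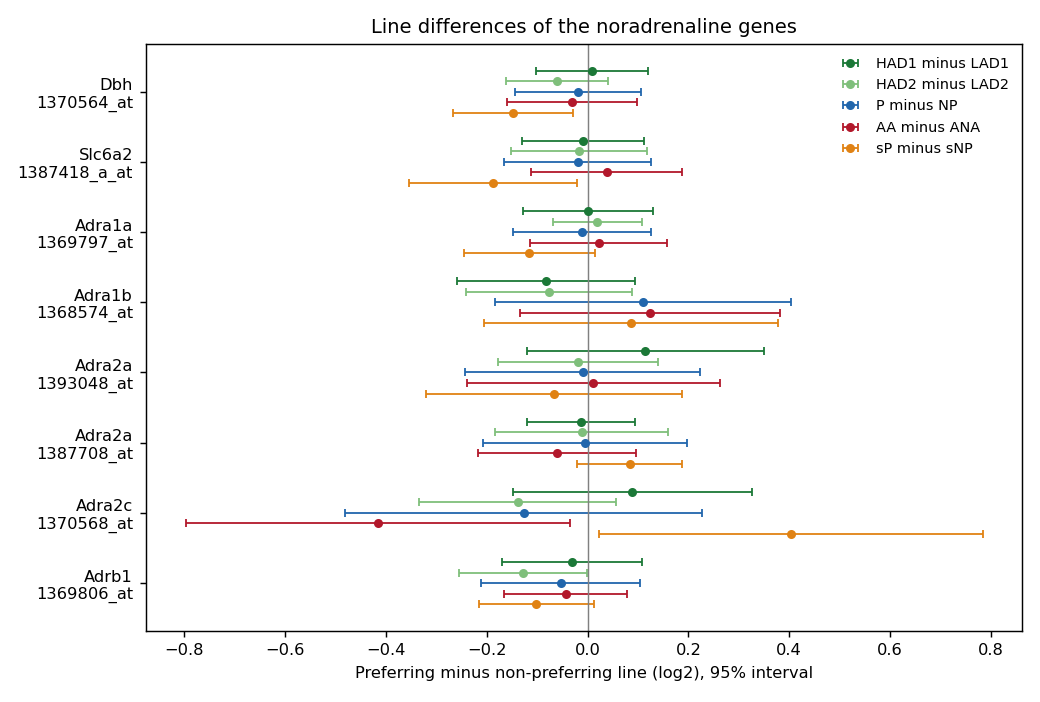
Difference of each probe set between the preferring and the non-preferring line of a pair (log2, points) with its 95% confidence interval from limma (bars), for 5 pairs in colours. The differences cluster at 0 except for Adra2c, at -0.42 in AA minus ANA and 0.40 in sP minus sNP.

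Dbh, which turns dopamine into noradrenaline, lay within 0.15 log2 units between the lines of each pair. In sP the lowest, median and highest log2 values were 5.18, 5.28 and 5.52, against 5.34, 5.43 and 5.59 in sNP. The upper part of the sP range overlapped most of the sNP range, and 6 of 8 sP arrays lay below the sNP mean. The difference was -0.15 (SE 0.057, 95% interval -0.27 to -0.029; limma p = 0.0178, adjusted p = 0.9998). In the other pairs it was 0.0090 in HAD1 minus LAD1, -0.061 in HAD2 minus LAD2, -0.020 in P minus NP and -0.031 in AA minus ANA. The probe set (1370564_at, chromosome 3) was below the median of all probe sets by mean value, as were those of Slc6a2, Adra1a, Adrb1 and the second probe set of Adra2a. With no detection call, such a value cannot be told apart from background signal.

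Slc6a2, the transporter that clears released noradrenaline, gave a like picture (1387418_a_at, chromosome 19). In sP its log2 values had a minimum of 5.07, a median of 5.23 and a maximum of 5.38, against 5.04, 5.39 and 5.78 in sNP. All 8 sP arrays lay below the sNP mean and 8 of 9 sNP arrays lay above the sP mean, although the sNP minimum was below the sP range. The difference was -0.19 (SE 0.079, 95% interval -0.35 to -0.022; limma p = 0.0287, adjusted p = 0.9998). With the GAPDH ratio of each array as a covariate it was -0.30 (SE 0.094). In the other 4 pairs it lay between -0.020 in P minus NP and 0.038 in AA minus ANA. Arrays of HAD1 were unusually alike, with an SD of 0.03 against 0.17 in LAD1.

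Th, which carries out the rate-limiting step, is no member of the 7 but bears on both. Its difference was -0.23 in sP minus sNP (SE 0.081; limma p = 0.0117, adjusted p = 0.9998). It was -0.19 in HAD2 minus LAD2 (SE 0.068; limma p = 0.00925, adjusted p = 0.130), 0.18 in HAD1 minus LAD1 (SE 0.15) and -0.21 in P minus NP (SE 0.12). In AA minus ANA it was 0.36 (SE 0.13; limma p = 0.0129, adjusted p = 0.897), and 9 of 10 AA arrays lay above the ANA mean. Without the 5 doubted AA and ANA arrays it was 0.58 (SE 0.13, adjusted p = 0.0181), with AA values from 6.71 to 7.58 and ANA values from 6.25 to 6.81. Dbh in the same pair was -0.031 (SE 0.062). The difference of Th varied among the 5 pairs (F = 5.08, adjusted p = 0.0269). The 6 measured markers of noradrenergic cell bodies outside the 7 genes, Th among them, had 0 calls in every pair with all arrays. Their mean was 6.99 ± 0.07 (SD, n = 8) in sP and 7.06 ± 0.04 (n = 9) in sNP, with a median difference of -0.042. In AA minus ANA 4 of the 6 were positive and 2 negative. Slc18a2 was at -0.36 there (SE 0.16; limma p = 0.0344, adjusted p = 0.983), with 1 of 10 AA arrays above the ANA mean. Its dimmer probe sets were at 0.14 (SE 0.091) and 0.042 (SE 0.13). Whether these markers have a part in the Dbh and Slc6a2 values was not tested.

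**Figure D2:**
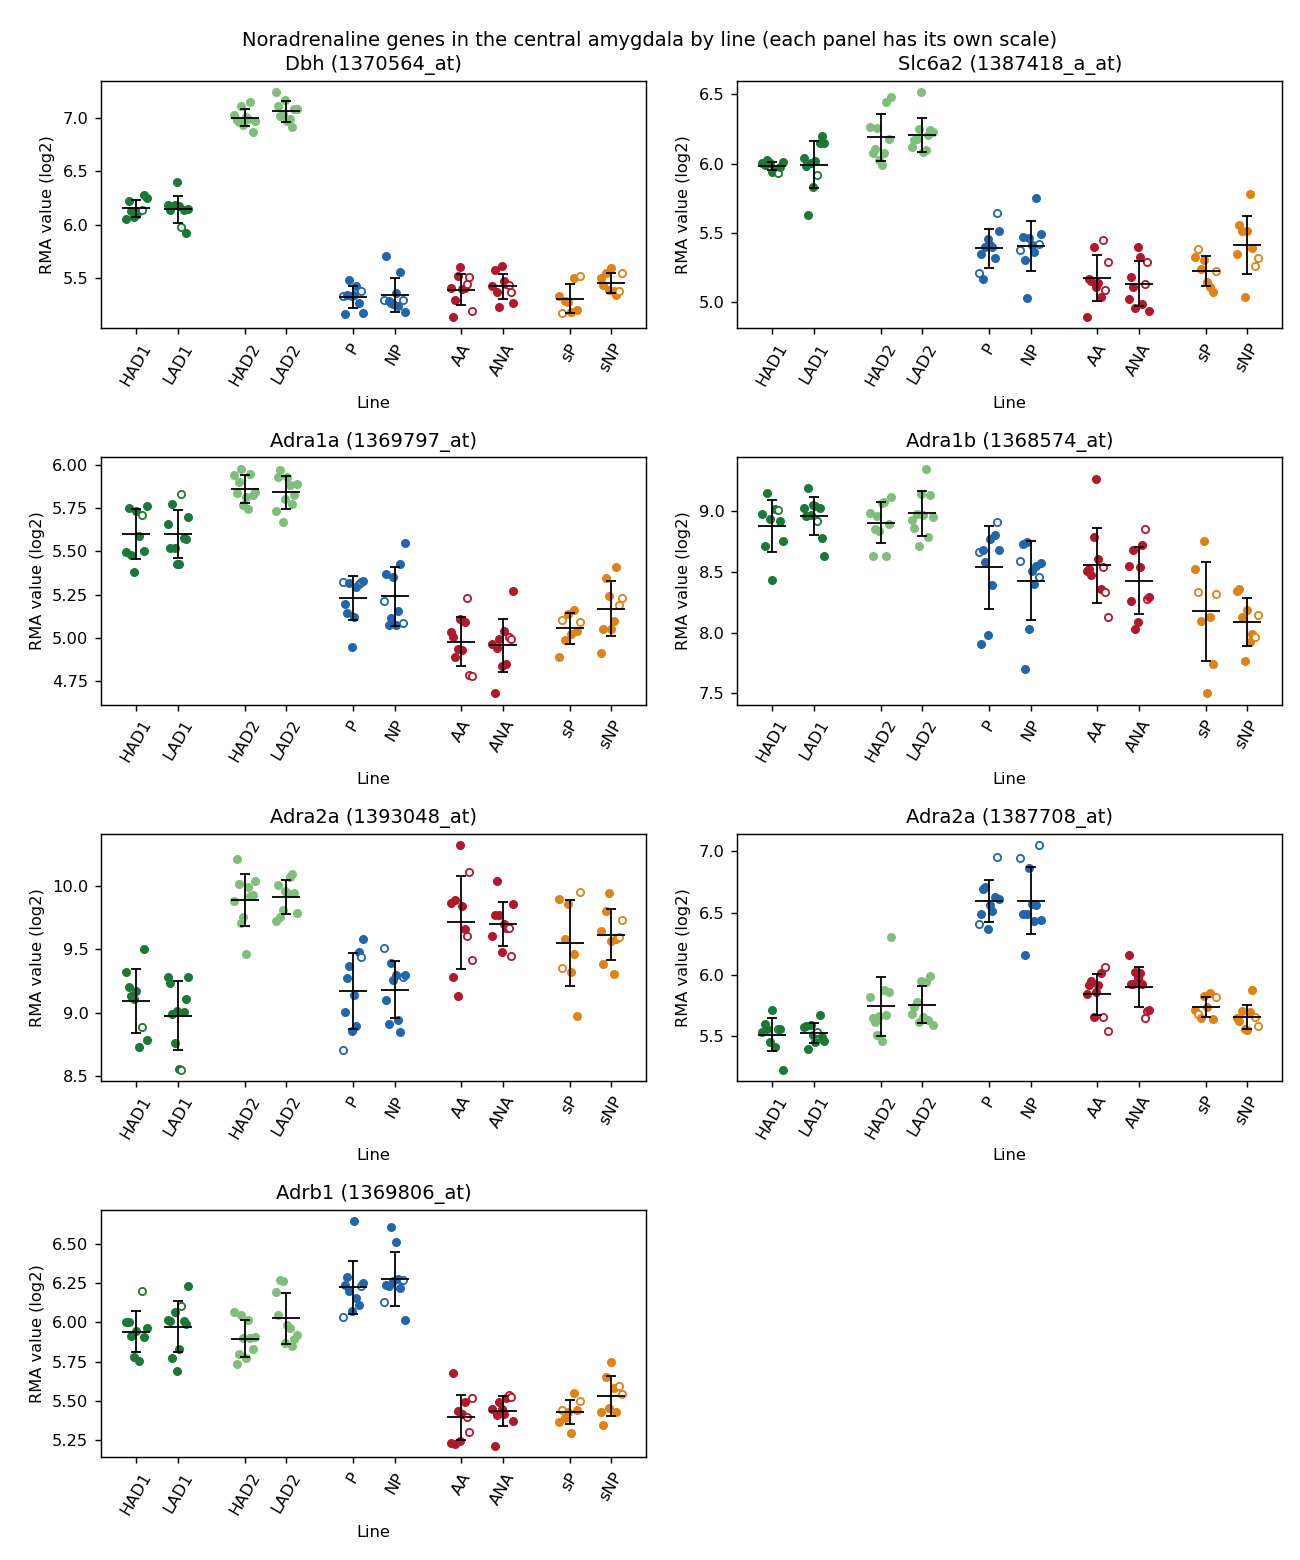
RMA values (log2) of 7 probe sets by line, 1 point per array, preferring line left of its partner, with mean and SD as bars and doubted arrays as open points. Each panel has its own scale. Within each pair the points of both lines overlap in every panel.

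Among the alpha-1 receptors, Adra1a (1369797_at, chromosome 15) was dim and differed by 0.022 or less in size in 4 pairs. In sP minus sNP its difference was -0.12 (SE 0.062; limma p = 0.0783, adjusted p = 0.9998). All 8 sP arrays, from 4.89 to 5.16 with a median of 5.07, lay below the sNP mean. The sNP arrays ran from 4.91 to 5.41 with a median of 5.19, so the ranges overlapped. In the remaining lines the mean lay between 4.98 ± 0.14 in AA and 5.86 ± 0.08 in HAD2 for preferring lines (SD, n = 10 each).

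Adra1b (1368574_at, chromosome 10) was one of 3 probe sets above the median of all by mean value. Its differences were -0.082 in HAD1 minus LAD1 (SE 0.085), -0.077 in HAD2 minus LAD2 (SE 0.080), 0.11 in P minus NP (SE 0.14), 0.12 in AA minus ANA (SE 0.12) and 0.087 in sP minus sNP (SE 0.14). All 5 of its 95% intervals included 0. Its spread was wide in P (7.91 to 8.91, median 8.67), NP (7.70 to 8.75, median 8.53), AA (8.13 to 9.27, median 8.52) and sP (7.50 to 8.76, median 8.22). It was narrower in sNP (7.77 to 8.36, median 8.13). The widest interval for Adra1b ran from -0.18 to 0.40, in P minus NP, so this number of arrays leaves room for a difference of that size.

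Of the alpha-2 receptors, Adra2a, the main autoreceptor on noradrenergic terminals, had a bright probe set (1393048_at) and a dim one (1387708_at), both on chromosome 1. The bright one differed by 0.11 in HAD1 minus LAD1 (SE 0.11), -0.019 in HAD2 minus LAD2 (SE 0.077), -0.0096 in P minus NP (SE 0.11), 0.011 in AA minus ANA (SE 0.12) and -0.066 in sP minus sNP (SE 0.12). The dim one differed by 0.083 in sP minus sNP (SE 0.050) and -0.060 in AA minus ANA (SE 0.076), and by under 0.014 in size in the other 3 pairs. Both probe sets had opposite signs in HAD1 minus LAD1, AA minus ANA and sP minus sNP. Over 96 arrays their line-centred values correlated at r = 0.402. For both, the 95% interval included 0 in every pair.

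Adra2c (1370568_at, chromosome 14), the alpha-2 subtype of the striatum, had the largest differences of the 7 genes, and in opposite directions in 2 pairs. In AA its lowest, median and highest log2 values were 8.04, 8.49 and 9.72, against 8.63, 9.04 and 9.56 in ANA. The AA range spanned the ANA range, and 8 of 10 AA arrays lay below the ANA mean. The mean was 8.63 ± 0.54 in AA and 9.04 ± 0.33 in ANA (SD, n = 10 each), a difference of -0.42 or 1.334-fold (SE 0.18, 95% interval -0.80 to -0.035; limma p = 0.0338, adjusted p = 0.983).

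In sP the lowest, median and highest values were 8.55, 9.51 and 10.17, against 8.62, 8.999 and 9.54 in sNP. The highest sP arrays exceeded every sNP array, while the lowest sP array fell below the sNP minimum. The mean was 9.42 ± 0.52 in sP (SD, n = 8) and 9.01 ± 0.29 in sNP (n = 9). The difference was 0.40 or 1.322-fold (SE 0.18, 95% interval 0.022 to 0.78; limma p = 0.0390, adjusted p = 0.9998). Of 8 sP arrays, 6 lay above the sNP mean. With the GAPDH ratio of each array as a covariate, the difference was 0.12 (SE 0.21). That log2 ratio averaged 0.30 ± 0.03 in sP and 0.37 ± 0.05 in sNP (SD).

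The other 3 pairs gave smaller values for Adra2c. HAD1 values ran from 7.78 to 8.98 with a median of 8.51, against 8.10 to 8.70 with a median of 8.35 in LAD1, a difference of 0.088 (SE 0.11). HAD2 values ran from 8.34 to 9.24 with a median of 8.89, against 8.72 to 9.15 with a median of 8.98 in LAD2, a difference of -0.14 (SE 0.094). P values ran from 8.89 to 9.94 with a median of 9.18, against 8.87 to 10.12 with a median of 9.37 in NP, a difference of -0.13 (SE 0.17). The 95% intervals of these 3 included 0.

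Over the 5 pairs, the F test for variation among the differences of Adra2c gave F = 3.39 (p = 0.0124 by limma, adjusted p = 0.157), so the variation did not pass with all arrays, where 4.54% of all probe sets did. Without the doubted arrays the difference was -0.76 in AA minus ANA (n = 7 and 8, SE 0.14, adjusted p = 0.00500), or 1.70-fold, with AA from 8.04 to 8.64 and ANA from 8.63 to 9.56. Without them it was 0.63 in sP minus sNP (n = 6 and 7, SE 0.14, adjusted p = 0.0319), or 1.54-fold, with sP from 9.26 to 10.17 and sNP from 8.73 to 9.54. These were the only 2 calls among the 8 probe sets in the 4 pairs with doubted arrays, against 1.8% of all probe sets in AA and ANA and 1.75% in sP and sNP. HAD1 minus LAD1 and P minus NP had 0 of 8 without them, where 2.56% and 1.62% of all probe sets passed. The F test then gave 10.8 (adjusted p = 2.09e-05), where 10.5% of all probe sets passed. The 2 calls and this F rest on leaving out arrays chosen for lying toward the other line. That choice widens differences by construction, so these p-values are no independent evidence of a difference. With array weights in place of leaving arrays out, F was 7.25 (adjusted p = 0.00112), where 12.8% of all probe sets passed. These weights were estimated with the line labels and count less the arrays that lie far from their line, so this F is no independent evidence either. By pair, the weights called neither difference. Adra2c was then -0.58 in AA minus ANA (SE 0.16, limma adjusted p = 0.108) and 0.48 in sP minus sNP (SE 0.17, adjusted p = 0.537).

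**Figure D3:**
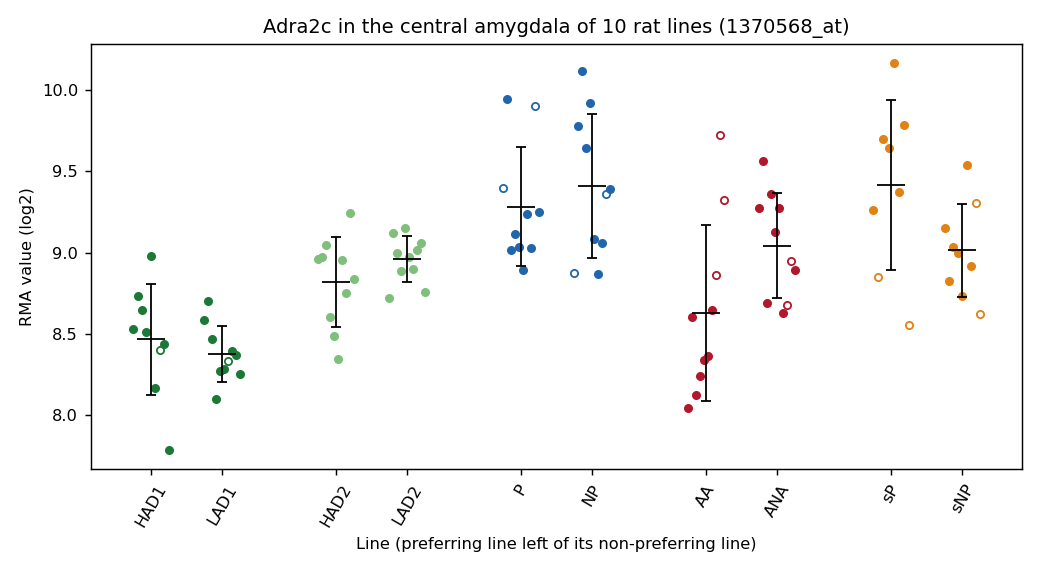
RMA values (log2) of Adra2c by line, 1 point per array, preferring line left of its partner, with mean and SD as bars and doubted arrays as open points. The 3 open AA points are the highest of AA, and the 2 open sP points are the lowest of sP.

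Markers of striatal neurons, of which 6 of 7 were measured, moved with Adra2c. In AA minus ANA 6 of 6 were negative (from -0.64 to -0.12, median -0.23, 0 called), and in sP minus sNP 6 of 6 were positive (from 0.20 to 0.38, median 0.30, 0 called). The medians of all genes were 0.0019 and -0.011 in these pairs. The mean striatal marker level was 10.40 ± 0.64 in AA and 10.72 ± 0.33 in ANA (SD, n = 10 each), and 11.16 ± 0.48 in sP (n = 8) and 10.87 ± 0.38 in sNP (n = 9). Other lists also moved one way in these pairs, with 0 calls with all arrays. In AA minus ANA 6 of 6 oligodendrocyte markers were negative (median -0.18) and 6 of 6 markers of cortical or basolateral neurons positive (median 0.21). In sP minus sNP 7 of 7 vascular markers were positive (median 0.13) and 8 of 8 astrocyte markers negative (median -0.025). Whether these have a part in the Adra2c values was not tested. In the other pairs the striatal median was -0.019 in HAD1 minus LAD1, -0.11 in HAD2 minus LAD2 and -0.16 in P minus NP.

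With the striatal marker mean of each array as a covariate, the difference of Adra2c was -0.21 in AA minus ANA (SE 0.13, adjusted p = 0.9998) and 0.16 in sP minus sNP (SE 0.10, adjusted p = 0.9997). The same covariate without the doubted arrays gave -0.55 in AA minus ANA (SE 0.13, adjusted p = 0.0538) and 0.36 in sP minus sNP (SE 0.11, adjusted p = 0.192). In tissue RNA, fewer cells of a type and less RNA per cell cannot be told apart.

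Within lines the relation was close. With each line centred on its mean, Adra2c and the striatal marker mean correlated over the 96 arrays at r = 0.771 and rho = 0.715 (permutation p = 1e-05 each, the smallest that 100000 permutations within lines can give; adjusted p = 0.00028 over 84 relations). Without the 2 arrays farthest from the median marker level, r was 0.752. By pair r was 0.615 in HAD1 and LAD1, 0.568 in HAD2 and LAD2, 0.852 in P and NP, 0.745 in AA and ANA and 0.875 in sP and sNP. The 2 genes most like Adra2c across arrays, of 14217, were Hpca (r = 0.866) and Pde1b (r = 0.839). The pooled within-line SD of Adra2c was 0.365, the largest of the 8 probe sets, against a median of 0.167 over all probe sets.

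**Figure D4:**
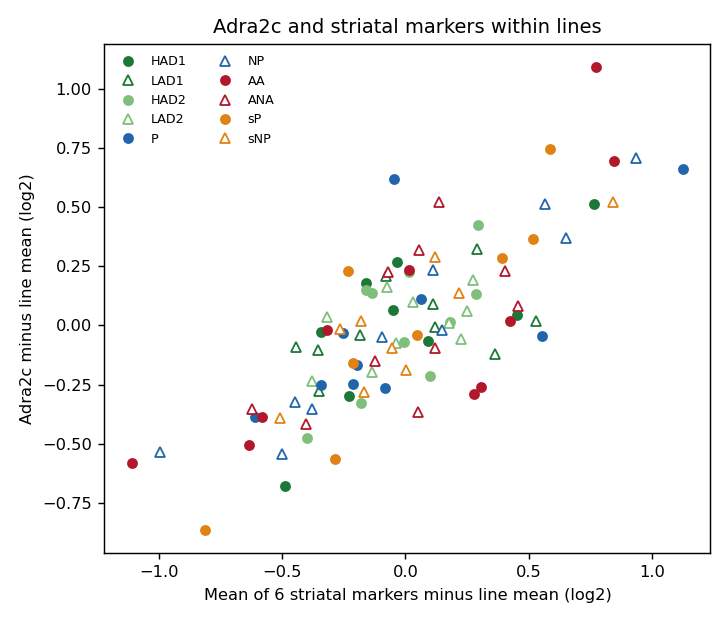
Adra2c (y axis) against the mean of 6 striatal neuron markers (x axis), both in log2 units after subtracting the mean of the line, 1 point per array. Filled circles are preferring and open triangles non-preferring lines, with 1 colour per pair. Arrays with more striatal marker signal have more Adra2c in all 5 pairs (r = 0.771).

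Adrb1 (1369806_at, chromosome 1), the beta receptor of the set, was negative in all 5 pairs, by 0.13 or less. The difference was -0.031 in HAD1 minus LAD1 (SE 0.067), -0.13 in HAD2 minus LAD2 (SE 0.061; limma p = 0.0483, adjusted p = 0.301), -0.054 in P minus NP (SE 0.076), -0.043 in AA minus ANA (SE 0.059) and -0.10 in sP minus sNP (SE 0.054; limma p = 0.0761, adjusted p = 0.9998). HAD2 arrays ran from 5.73 to 6.07 with a median of 5.90, against 5.85 to 6.27 with a median of 5.97 in LAD2. sP arrays ran from 5.30 to 5.55 with a median of 5.44, against 5.35 to 5.75 with a median of 5.54 in sNP. In both pairs the ranges overlapped, with 8 of 10 HAD2 arrays and 7 of 8 sP arrays below the mean of the partner line.

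Averaged over the 5 pairs with equal weight, 0 of 8 probe sets passed the limma test, where 0.986% of all probe sets did. At an unadjusted p under 0.05 there were 2 of 8, against 7.8% of all. These were Adrb1, at -0.072 (SE 0.029, p = 0.0151 by limma, adjusted p = 0.378), and Dbh, at -0.050 (SE 0.025, p = 0.0440, adjusted p = 0.610), which was negative in 4 of 5 pairs. Without the doubted arrays it was also 0 of 8, where 2.9% of all passed. With all arrays the mean difference of Adra2c was -0.038 (SE 0.072). For Slc6a2 it was -0.039 (SE 0.032), for Adra1a -0.017 (SE 0.027), for Adra1b 0.032 (SE 0.054), and for the bright and dim probe sets of Adra2a 0.0062 (SE 0.051) and -0.0015 (SE 0.035).

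The wider pathway was read from 6 lists of 74 genes, of which 64 were measured, with 1 probe set per gene. HAD2 minus LAD2 had 1 higher and 1 lower gene past the test, where 3.75% of all 14217 genes passed. HAD1 minus LAD1 had 0, where 0.682% passed. In the remaining 3 pairs neither these nor any other gene passed. At an unadjusted limma p under 0.05 there were 8 of the 64 genes in HAD1 minus LAD1, against 11% of all probe sets. There were 10 in HAD2 minus LAD2 against 16.4%, and 1 in P minus NP against 4.91%. It was 3 in AA minus ANA against 4.92%, and 3 in sP minus sNP against 4.32%. These shares are over all probe sets, dim ones among them, while each gene was counted by its brightest, so the sets are unlike. The higher gene was Adcy9, an adenylyl cyclase, at 0.63 in HAD2 minus LAD2 (SE 0.091, adjusted p = 5.93e-05). All 10 HAD2 arrays lay above the LAD2 mean, and the mean was 8.39 ± 0.13 (SD, n = 10) in HAD2, against 7.75 ± 0.27 (n = 10) in LAD2. Adcy9 was also positive, uncalled, in HAD1 minus LAD1 (0.19, SE 0.090) and P minus NP (0.29, SE 0.18). The same held in AA minus ANA (0.044, SE 0.20) and sP minus sNP (0.16, SE 0.088). Its mean over the 5 pairs was 0.27 (SE 0.066, limma adjusted p = 0.0204), where 0.986% of all probe sets passed. The F test for variation among pairs gave 2.38 (adjusted p = 0.367).

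The lower gene was Ddc, at -0.46 in HAD2 minus LAD2 (SE 0.071, adjusted p = 0.000171), with means of 8.48 ± 0.15 in HAD2 and 8.94 ± 0.16 in LAD2. A second Ddc probe set was at -0.45 in HAD2 minus LAD2 (SE 0.097, adjusted p = 0.00631). In HAD1 minus LAD1 the first, brighter probe set did not pass, at 0.14 (SE 0.089, limma adjusted p = 0.618). The second probe set was higher there, at 0.37 (SE 0.075, adjusted p = 0.0157). All 9 HAD1 arrays lay above the LAD1 mean, with means of 7.86 ± 0.17 in HAD1 (n = 9) and 7.48 ± 0.15 in LAD1 (n = 10). The differences of this probe set varied among the 5 pairs (F = 6.81, adjusted p = 0.00358), as did those of the first (F = 6.09, adjusted p = 0.00847). Ddc also makes dopamine and serotonin, so it marks no single transmitter. Over all 109 probe sets of the 64 genes, 1 higher passed in HAD1 minus LAD1 (0.917%, against 0.963% of all probe sets). In HAD2 minus LAD2, 1 higher and 3 lower passed (3.67%, against 4.09% of all probe sets). The 3 lower included a dimmer probe set of Rgs2, a regulator of Gq signalling, at -0.63 (SE 0.16, adjusted p = 0.0228).

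By list, the 8 synthesis and storage genes had a median difference between -0.098 in HAD2 minus LAD2 and 0.028 in P minus NP and AA minus ANA, and the 28 G proteins and effectors one between -0.0029 in sP minus sNP and 0.037 in HAD1 minus LAD1. The 5 uptake and breakdown genes, 4 noradrenergic transcription factors, 3 other adrenergic receptors (Adra1d, Adra2b and Adrb3) and 16 desensitisation and scaffold genes had 0 calls in every pair with all arrays. Without the doubted arrays, a removal that widens line differences by construction, 3 genes passed in HAD1 minus LAD1 by limma. These were Aldh2, an aldehyde dehydrogenase, at -0.51 (adjusted p = 0.00275), Maoa, which breaks down noradrenaline, at 0.38 (adjusted p = 0.0139), and Akap5, an anchoring protein of protein kinase A, at -1.08 (adjusted p = 0.0266). In sP minus sNP Akr1b1, an aldose reductase, was at -0.27 (adjusted p = 0.00994) and Nherf1, a receptor scaffold, at -0.33 (adjusted p = 0.00496). The dimmer probe sets of Akr1b1 and Nherf1 did not pass there, at -0.11 and -0.16 (limma adjusted p = 0.608 and 0.603). In AA minus ANA Creb1, a transcription factor downstream of protein kinase A, was at -0.86 (adjusted p = 0.00167), beside Th. That was the brightest Creb1 probe set. The 3 dimmer ones were at 0.067, 0.054 and 0.079 (limma adjusted p = 0.772, 0.608 and 0.807). Of the 109 probe sets of the lists, 5 passed in HAD1 minus LAD1 without the doubted arrays, against 2.56% of all probe sets. It was 0 in P minus NP against 1.62%, 3 in AA minus ANA against 1.8% and 2 in sP minus sNP against 1.75%.

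Across arrays within lines, 84 relations were computed, 21 among the 7 genes and 63 with the means of 9 cell-type marker lists. Of these, 11 had an adjusted p of r under 0.05, and 9 of the 11 also by rho. Among the 21 relations between members, r ranged from -0.407 to 0.286 and 1 passed. That 1 was Adra1b with Adra2c, at r = -0.407 and rho = -0.322 (permutation p = 0.00061 and 0.00328, adjusted p = 0.0103 and 0.0344). Without the 2 farthest arrays r was -0.402. It was negative in all 5 pairs, between -0.0544 in HAD2 and LAD2 and -0.559 in AA and ANA.

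Adra2a, by its brighter probe set, rose with the markers of central amygdala neurons, at r = 0.537 and rho = 0.557 (permutation p = 1e-05 each, adjusted p = 0.00028). Without the 2 farthest arrays r was 0.483, and by pair it lay between 0.306 in AA and ANA and 0.733 in HAD1 and LAD1. It fell with the markers of vascular cells, at r = -0.538 and rho = -0.576 (permutation p = 1e-05 each, adjusted p = 0.00028). Without the 2 farthest arrays r was -0.550, and by pair it lay between -0.412 in P and NP and -0.720 in HAD2 and LAD2. Adra1b fell with the striatal markers, at r = -0.408 and rho = -0.321 (permutation p = 0.00038 and 0.00278, adjusted p = 0.00798 and 0.0334), though in HAD2 and LAD2 r was 0.267. Without the 2 farthest arrays it was -0.384.

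The markers of noradrenergic cell bodies gave 3 of the 11 relations. Adra2a was at r = 0.370 and rho = 0.359 (permutation p = 0.00085 and 0.00108, adjusted p = 0.0107 and 0.0151). Adra2c was at r = -0.351 and rho = -0.302 (permutation p = 0.00132 and 0.00439, adjusted p = 0.0139 and 0.0410). Adra1b was at r = 0.344 and rho = 0.243 (permutation p = 0.00212 and 0.0268, adjusted p = 0.0198 and 0.161). Without the 2 farthest arrays these r were 0.389, -0.299 and 0.325, and each had its sign in 4 of 5 pairs. For Dbh and Slc6a2 themselves, r with this list was 0.144 and 0.0229 (permutation p = 0.180 and 0.826, adjusted p = 0.488 and 0.921). Such cell bodies lie mainly outside the amygdala, and whether these relations bear on noradrenergic cells was not tested. Adra2a fell with oligodendrocyte markers, at r = -0.335 and rho = -0.411 (permutation p = 0.00356 and 0.00015, adjusted p = 0.0272 and 0.00315). Adra2c fell with astrocyte markers, at r = -0.320 and rho = -0.344 (permutation p = 0.00089 and 0.00087, adjusted p = 0.0107 and 0.0146). Adra2a with microglial markers was at r = -0.278 and rho = -0.273 (permutation p = 0.00356 and 0.00893, adjusted p = 0.0272 and 0.0750). Without the 2 farthest arrays these r were -0.410, -0.307 and -0.251, and all 3 were negative in 5 of 5 pairs.

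The genes most like the members, by the highest r over 96 line-centred arrays, were Zfp667 (r = 0.746) and Hap1 (r = 0.716) for Adra2a and Tshz2 (r = 0.673) and Fgfr1 (r = 0.573) for Adra1b. For the dim members the closest were weaker, Syne3 (r = 0.501) for Slc6a2, Ucp3 (r = 0.488) for Adra1a, Rap2b (r = 0.459) for Adrb1 and Slc23a1 (r = 0.407) for Dbh. None of the correlations of Dbh, Slc6a2, Adra1a or Adrb1 with a marker list passed.

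**Figure D5:**
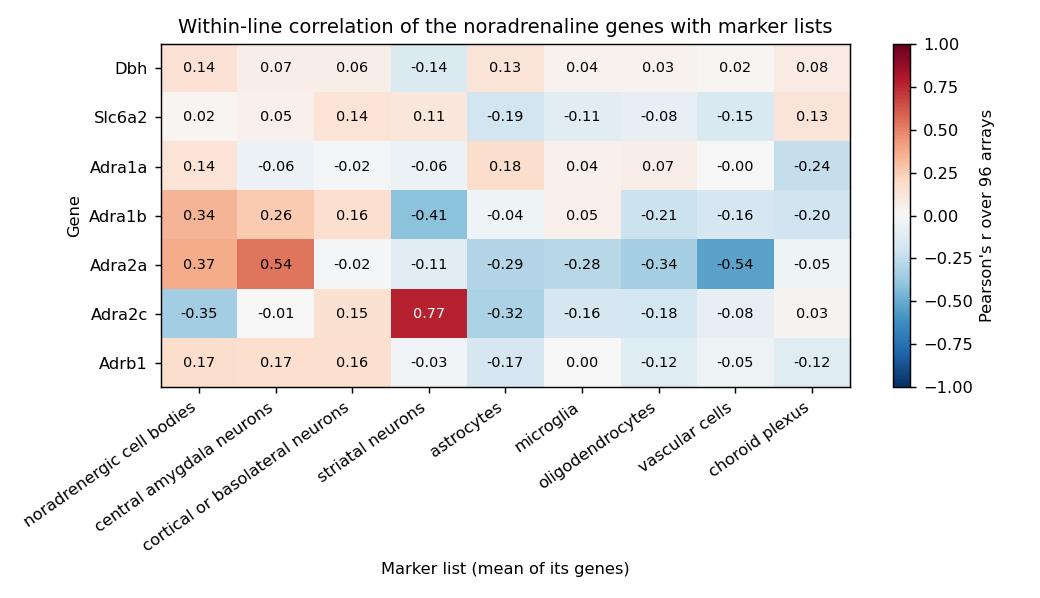
Pearson's r over 96 line-centred arrays between each of the 7 genes (rows) and the mean of each of 9 marker lists (columns). The strongest cells are Adra2c with striatal neurons (0.771), Adra2a with vascular cells (-0.538) and Adra2a with central amygdala neurons (0.537).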

How the data were processed

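Per the labels' protocols, total RNA was extracted with Trizol and an RNeasy kit and biotin-labelled cRNA was hybridised to Affymetrix rat arrays. The deposited log2 values were made by the authors with RMA, per the submitters' processing notes. For its version, and for whether it was run on all pairs at once, the sources used here give nothing. The table had 0 value columns of no sample. Groups were taken from the titles.

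The 57 control probe sets were left out. Probe sets were named by the platform annotation (20826 with 1 symbol, 436 with several, 9780 unlisted), and chromosomes came from RefSeq. A gene was represented by its brightest probe set. limma 3.58.1 in R 4.3.3 fitted each pair on its own arrays with an intensity trend, two-sided, and all 10 lines in 1 fit for the mean over pairs and the F test. Scripts were tested on simulated data. An array was doubted if, on the 100 probe sets that separated both lines best in the other arrays, it lay on the other line's side on odd and on even chromosomes. That rule, both striatal covariate fits and the fit without sP 2 and sNP 2 were chosen after seeing the data. The members and lists were chosen with earlier results of these data known. The text names all member probe sets, each pathway gene past the test in any pair, and the genes most like each member; Th was added after its values were seen. A probe that matches a sequence differing between lines can shift without a change in expression. The number of arrays limits the precision.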

Additional observations from a re-analysis of the deposited data

Results flagged for a closer look

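Within a line, 5 of 80 groups of arrays held a value far from the others, where chance gives about 1 in 20. Slc6a2 was 6.52 in LAD2 15, with the next array at 6.25. The dim Adra2a probe set (1387708_at) was 6.30 in HAD2 10, with the next at 5.88, and 5.88 in sNP 7, with the next at 5.71. Adrb1 was 6.64 in P 6, with the next at 6.29, and 5.21 in ANA 4, below the next at 5.37. None of these 5 arrays was among the doubted ones.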

How the results depend on the processing

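Leaving out the doubted arrays moved the count of called probe sets to 1 of 8 in AA minus ANA, 1 in sP minus sNP and 1 in the F test, each being Adra2c, and array weights also gave 1 in the F test, where 12.8% of all probe sets passed. In every other alternative run, the count stayed at 0 in each pair, in the mean over pairs and in the F test. The differences that changed sign were all uncalled, and the cause was not tested. The GAPDH covariate also took Adra2c in sP minus sNP to 0.12. With array weights the differences were Dbh -0.024 in HAD1 minus LAD1, Adra1a -0.0080 in HAD1 minus LAD1, Adra1a 0.014 in P minus NP and Adra2a 0.025 in P minus NP. With quantile normalization within the pair the differences were Adra1a -0.0057 in HAD1 minus LAD1, Slc6a2 0.019 in HAD2 minus LAD2, the dim Adra2a probe set 0.025 in HAD2 minus LAD2, Adra1a 0.0012 in P minus NP, the dim Adra2a probe set 0.00048 in P minus NP, Adra1a -0.0038 in AA minus ANA and the dim Adra2a probe set 0.0026 in the mean over pairs. With LAD1 36 counted as HAD1 the differences were Adra1a -0.035 in HAD1 minus LAD1 and Adra2a -0.014 in the mean over pairs. With LAD1 36 left out the differences were Adra1a -0.018 in HAD1 minus LAD1 and Adra2a -0.0032 in the mean over pairs. With the doubted arrays left out the differences were Dbh -0.0071 in HAD1 minus LAD1, Adra2a 0.069 in P minus NP, the dim Adra2a probe set 0.072 in P minus NP, Adra2a -0.024 in AA minus ANA and the dim Adra2a probe set 0.0065 in the mean over pairs. With the striatal marker mean as a covariate the differences were Dbh -0.0014 in HAD1 minus LAD1, Slc6a2 0.0055 in HAD2 minus LAD2, Adra2a 0.027 in HAD2 minus LAD2, the dim Adra2a probe set 0.029 in HAD2 minus LAD2 and Adra2a 0.067 in sP minus sNP. With both the doubted arrays left out and that covariate the differences were Dbh -0.023 in HAD1 minus LAD1, Adra1b -0.036 in P minus NP, Adra2a 0.038 in P minus NP, the dim Adra2a probe set 0.053 in P minus NP, Dbh 0.013 in AA minus ANA, Adra2a -0.015 in AA minus ANA and Adra2a 0.16 in sP minus sNP. With the GAPDH ratio as a covariate the differences were the dim Adra2a probe set 0.024 in HAD2 minus LAD2, Adra1a 0.017 in P minus NP, Adra2a -0.020 in AA minus ANA and Adra2a 0.068 in sP minus sNP. Leaving out 1 array at a time gave Dbh -0.015 to 0.038 in HAD1 minus LAD1, Adra1a -0.019 to 0.028 in HAD1 minus LAD1, the dim Adra2a probe set -0.038 to 0.022 in HAD1 minus LAD1, Slc6a2 -0.050 to 0.013 in HAD1 minus LAD1, the dim Adra2a probe set -0.074 to 0.019 in HAD2 minus LAD2, Adra2a -0.055 to 0.028 in HAD2 minus LAD2, Slc6a2 -0.050 to 0.017 in HAD2 minus LAD2, Adra2a -0.055 to 0.042 in P minus NP, the dim Adra2a probe set -0.054 to 0.045 in P minus NP, Dbh -0.037 to 0.020 in P minus NP, Adra1a -0.029 to 0.024 in P minus NP, Slc6a2 -0.062 to 0.018 in P minus NP, Adra2a -0.056 to 0.076 in AA minus ANA, Adra1a -0.0088 to 0.057 in AA minus ANA and Adra2a -0.12 to 0.016 in sP minus sNP. Over the same leave-outs Adra2c lay between -0.54 and -0.35 in AA minus ANA and between 0.30 and 0.53 in sP minus sNP. P and NP, and sP and sNP, share animal numbers. Same-numbered arrays deviated together (r over 0.1) in 5 of 10 and 3 of 8 pairs of arrays, so the numbers were not taken to pair them. With the number as a block, 0 of 8 probe sets passed in P minus NP and 0 in sP minus sNP, and Adra2c was -0.13 and 0.44 in these pairs. The number of arrays limits what could be seen, since 95% intervals of single differences reached from -0.80 to 0.78, and dim probe sets may hold little but background.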

Other observations

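Rgs2, a regulator of Gq signalling, had a dimmer probe set at -0.40 in HAD1 minus LAD1 (SE 0.14, adjusted p = 0.247; -0.49 and 0.0413 without the doubted arrays), -0.63 in HAD2 minus LAD2 (SE 0.16, adjusted p = 0.0228), 0.43 in P minus NP (SE 0.22), -0.56 in AA minus ANA (SE 0.16, adjusted p = 0.622) and 0.088 in sP minus sNP (SE 0.14). The differences of this dimmer probe set varied among pairs by limma (F = 6.56, adjusted p = 0.00491). In AA minus ANA 0 of 10 AA arrays lay above the ANA mean, and without the doubted arrays the difference was -0.78 (adjusted p = 0.00749). The brighter Rgs2 probe set gave -0.25 in HAD2 minus LAD2 (SE 0.11, adjusted p = 0.235) and -0.20 in AA minus ANA (SE 0.12, adjusted p = 0.983). It gave -0.023 in HAD1 minus LAD1 (SE 0.095), 0.14 in P minus NP (SE 0.16) and -0.0030 in sP minus sNP (SE 0.12). Its differences did not pass the limma test for variation among pairs (F = 1.55, adjusted p = 0.620).

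Akap5, an anchoring protein of protein kinase A at beta receptors, was -0.83 in HAD1 minus LAD1 (SE 0.29, adjusted p = 0.227; -1.08 and 0.0266 without the doubted arrays) and 0.84 in HAD2 minus LAD2 (SE 0.24, adjusted p = 0.0501), and its differences varied among pairs (F = 5.32, adjusted p = 0.0204). Both genes are from the pathway lists and were chosen here after their values were seen.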
